A study of Mus musculus with 10 samples.

Results

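Immediate early genes are the genes that a cell transcribes within minutes of a stimulus, without first making new protein. The 10 followed here were chosen by name: the AP-1 subunits Fos, Fosb and Junb, the zinc finger factors Egr1 and Egr2, the orphan nuclear receptor Nr4a1, the synaptic effector Arc, the neuronal factor Npas4, Ier2 and the MAP kinase phosphatase Dusp1. They were matched by symbol among the 24421 symbols of the deposited counts, and all 10 were among the 18727 genes tested.

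Microglia were prepared for RNA sequencing from the cerebral cortex of mice aged 9 months, by papain dissociation and an Optiprep density gradient. There were 3 libraries from wild type (WT) mice, 4 from APP/PS1 mice and 3 from APP/PS1 mice injected with N-AS. APP/PS1 mice carry mutant human amyloid precursor protein and presenilin-1 transgenes and form amyloid plaques, and the N-AS group carries the same transgenes. N-AS (N-acetyl sphingosine, a sphingolipid) was injected under the skin daily at 30 mg/kg for 8 weeks from the age of 7 months, and the paper describes vehicle injection for the untreated APP/PS1 mice. Each library was a pool from a pair of mice, so the libraries, not the mice, are the replicates.

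Expression of these genes is driven by calcium and MAP kinase signals that act on factors already bound at their promoters, among them CREB at the cyclic AMP response element (CRE) and SRF at the CArG box. Fos and Jun proteins then pair as AP-1, Egr proteins and Nr4a1 bind sites of their own, and Dusp1 dephosphorylates MAP kinases and so limits the signal. In brain, Arc and Npas4 are known mainly from active neurons, whereas the AP-1 genes, Ier2, Nr4a1 and Dusp1 respond in most cell types, microglia included. The same genes are known to be induced while tissue is being dissociated into cells.

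The promoters are shown for their matches to a part of the CRE. RefSeq promoter sequence (GRCm38.p6) was held for 7 of the 10 genes, and Egr1, Arc and Ier2 are named only. The 4 printed below are the 250 bases before the annotated start of an AP-1 gene, the phosphatase, the nuclear receptor and the neuronal factor. Capitals mark TGACG, the first 5 bases of the CRE, or its reverse complement CGTCA.
Fos (chr12:85473640-85473889, plus strand): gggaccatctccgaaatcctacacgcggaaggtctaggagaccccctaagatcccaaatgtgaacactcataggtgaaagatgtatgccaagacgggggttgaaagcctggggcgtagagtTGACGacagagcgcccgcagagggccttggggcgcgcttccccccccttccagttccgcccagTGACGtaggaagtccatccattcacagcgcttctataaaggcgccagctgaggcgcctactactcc
Dusp1 (chr17:26508473-26508722, minus strand): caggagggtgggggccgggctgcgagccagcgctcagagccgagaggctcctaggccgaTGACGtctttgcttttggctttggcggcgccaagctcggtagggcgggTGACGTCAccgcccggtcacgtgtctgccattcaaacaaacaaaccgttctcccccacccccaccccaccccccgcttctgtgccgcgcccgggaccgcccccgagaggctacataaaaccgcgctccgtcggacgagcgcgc
Nr4a1 (chr15:101266596-101266845, plus strand): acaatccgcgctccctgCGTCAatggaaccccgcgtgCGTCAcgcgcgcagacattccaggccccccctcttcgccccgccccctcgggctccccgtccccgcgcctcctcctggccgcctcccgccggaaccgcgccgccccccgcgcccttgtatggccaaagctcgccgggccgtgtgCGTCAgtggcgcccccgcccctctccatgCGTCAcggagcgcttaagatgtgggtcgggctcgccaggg
Npas4 (chr19:4989972-4990221, minus strand): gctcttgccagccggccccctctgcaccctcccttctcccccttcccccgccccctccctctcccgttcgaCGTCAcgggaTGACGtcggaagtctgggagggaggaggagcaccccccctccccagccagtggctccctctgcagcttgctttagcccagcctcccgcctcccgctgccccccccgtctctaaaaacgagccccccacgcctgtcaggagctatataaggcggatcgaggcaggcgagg

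TGACG or CGTCA was found in a window of each of the 7 genes, against 17.8% of 32851 promoters of the same length. That share is per window, and Egr2 had 5 windows in which a match could fall. The Nr4a1 window held 4 copies, at 233, 213, 69 and 40 bases before the start. The Fos window held 2, at 129 and 66 bases, and the Npas4 window held 2, at 179 and 169 bases. The Dusp1 window held 3, at 191, 143 and 140 bases, and the last 2 of them overlap in the full palindrome TGACGTCA, which 1.55% of all promoters hold. Fosb and Junb held 1 copy each, at 60 and 106 bases. Egr2 has 5 annotated windows, of which 3 held 2 copies and 4 held a CArG box, a motif found in 1.47% of all promoters. The 3 windows with 2 copies start at 67537619, 67537620 and 67537680 on chromosome 10 and overlap. They hold the same 2 copies and the same CArG box, so these counts are of windows and not of separate sites. A match is a run of letters and not a measured binding site.

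The total count per library lay between 8805804 and 19432075, and the lowest count of Fos in a library was 2631 reads. The libraries were first compared with their labels. WT library 3 had the largest summed level of 14 neuronal markers, at 6428 CPM (read counts scaled to a common library size by TMM), against 2107 and 2492 CPM in the other WT libraries and 2566 to 3105 CPM in APP/PS1. The N-AS libraries had 2866, 2752 and 3825 CPM, so that N-AS library 3 was the next highest of all 10. The microglial markers summed to 920 to 1447 CPM in WT, 3443 to 4869 CPM in APP/PS1 and 2072 to 2862 CPM after N-AS. The oligodendrocyte markers summed to 2371 to 6719 CPM in WT, 1872 to 4612 CPM in APP/PS1 and 2802 to 3805 CPM after N-AS. Over all libraries the astrocyte markers summed to 2352 to 4050 CPM and the endothelial markers to 566 to 1546 CPM. The fraction therefore held RNA of neurons, oligodendrocytes, astrocytes and endothelial cells as well as microglia in every library. Fewer cells of a type and less RNA per cell cannot be told apart in such bulk samples. Reads of Xist, the RNA of the inactive X chromosome, numbered 29 to 37 in the WT libraries and N-AS library 3 and 5253 to 11188 in the other 6, although the study describes male mice. Genotype and this split cannot be told apart in APP/PS1 against WT, whereas N-AS libraries 1 and 2 and the APP/PS1 libraries lie on the same side of it.

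**Figure D1:**
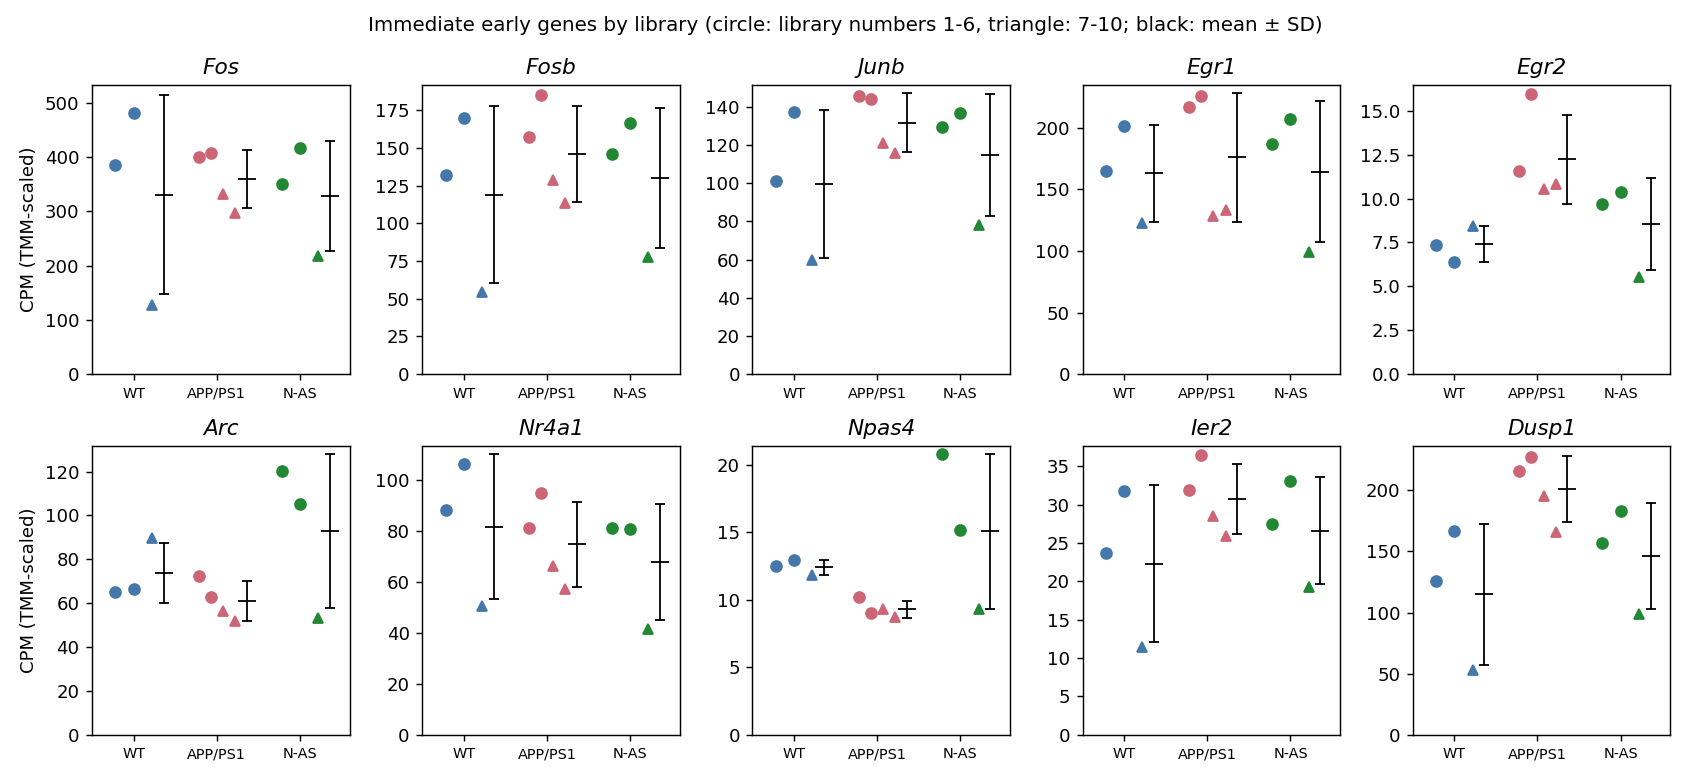
Each panel plots the level of a gene in CPM, scaled by TMM, in the 3 WT, 4 APP/PS1 and 3 N-AS libraries, with the mean and SD in black; circles are the libraries numbered 1 to 6 in the sample titles and triangles those numbered 7 to 10. WT library 3 and N-AS library 3 are the low triangles in most panels, Dusp1 and Egr2 lie highest in APP/PS1, and Arc and Npas4 lie highest in N-AS libraries 1 and 2.

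None of the 10 genes passed the adjusted threshold in any of the 3 comparisons. What the genes showed instead was a common movement between libraries of the same group, carried by Fos, Fosb, Junb, Ier2, Nr4a1 and Dusp1. It was not particular to the members. With group means removed, the mean of the oligodendrocyte markers was correlated with that of the members at r = 0.874. Arc and Npas4 followed another pattern, with their highest levels in N-AS libraries 1 and 2. The mean of 7 of the 10 genes was highest in APP/PS1, and among these Dusp1 and Egr2 differed most from WT.

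Fos, which pairs with Jun proteins in AP-1, was the most abundant member per length of transcript. Its level was 385, 481 and 127 CPM in WT libraries 1 to 3. In APP/PS1 it was 399, 408, 332 and 298 CPM, and after N-AS 350, 417 and 219 CPM. The groups overlapped, and WT libraries 1 and 3 lay further apart than any APP/PS1 library from another. The means were 330.8 ± 183 CPM in WT (SD, n = 3), 359 ± 53.3 in APP/PS1 (n = 4) and 329 ± 101 after N-AS (n = 3). The log2 fold change of APP/PS1 over WT was 0.12 ± 0.38 (SE), with an adjusted p = 0.912 in edgeR's quasi-likelihood test, and that of N-AS over APP/PS1 was -0.13 ± 0.38, with an adjusted p = 0.948.

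Fosb and Junb, the other AP-1 subunits, had the same order of libraries within WT. Fosb was at 132, 170 and 54.7 CPM in WT, between 113 and 185 CPM in APP/PS1 and at 146, 167 and 77.4 CPM after N-AS. Junb was at 101, 138 and 59.8 CPM in WT, between 116 and 146 CPM in APP/PS1 and at 129, 137 and 78.1 CPM after N-AS. Both genes were lowest of all 10 libraries in WT library 3. The log2 fold change of APP/PS1 over WT was 0.30 ± 0.37 for Fosb and 0.41 ± 0.27 for Junb (SE, edgeR adjusted p = 0.738 and 0.505). For Junb it was 0.15 without WT library 3 and 0.72 without WT library 2, and for Fosb -0.042 and 0.65. Prdx2 overlaps Junb on the opposite strand, and the counting is not stated to use strand.

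Ier2, a short early response gene of most cell types, was at 23.7, 31.8 and 11.5 CPM in WT, 25.9 to 36.4 CPM in APP/PS1 and 27.5, 33.1 and 19.2 CPM after N-AS. Its difference between APP/PS1 and WT, 0.46 ± 0.30 on the log2 scale (SE, edgeR adjusted p = 0.490), was within the spread of the WT libraries. It was 0.15 without WT library 3 and 0.83 without WT library 2.

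Dusp1, the phosphatase that limits MAP kinase signals, had the largest difference between APP/PS1 and WT among the members. It was at 126, 166 and 52.8 CPM in WT and at 215, 227, 195 and 166 CPM in APP/PS1. The groups met only at their edge, where WT library 2 and APP/PS1 library 4 lay within 1 CPM of each other. After N-AS it was at 157, 183 and 98.9 CPM, between the other means. The log2 fold change of APP/PS1 over WT was 0.81 ± 0.34 (SE), with an unadjusted p = 0.0375 and an edgeR adjusted p = 0.252. It was 0.47 without WT library 3 (adjusted p = 0.319). With the set of libraries, 1 to 6 or 7 to 10, as a covariate it was 1.05, with an adjusted p = 0.0294. N-AS over APP/PS1 gave -0.46 ± 0.34 (adjusted p = 0.727). In GENCODE M21 the Dusp1 span (chr17:26505590-26562128) runs past the start used for the promoter above. Ergic1 overlaps that span on the opposite strand. The annotation counted is not stated, so it is not known whether reads of the pair were separated.

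Nr4a1, which encodes the nuclear receptor Nur77, was at 88.2, 106 and 50.7 CPM in WT, 57.1 to 95.1 CPM in APP/PS1 and 81.2, 80.7 and 41.7 CPM after N-AS. Its fold changes were small in each comparison, from -0.27 to -0.13 on the log2 scale, with edgeR adjusted p from 0.872 to 0.942.

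Egr1, the most studied zinc finger factor of the set, was at 165, 202 and 123 CPM in WT, 217, 226, 128 and 133 CPM in APP/PS1 and 187, 207 and 99.3 CPM after N-AS. Its spread within APP/PS1 was larger than any difference between group means, and the log2 fold change of APP/PS1 over WT was 0.11 ± 0.30 (SE, edgeR adjusted p = 0.895).

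Egr2, the related factor that is also known for its part in myelination by Schwann cells, behaved differently from Egr1. Its level was 7.37, 6.38 and 8.44 CPM in WT and 11.6, 15.9, 10.5 and 10.9 CPM in APP/PS1, so that the groups did not overlap. After N-AS it was 9.69, 10.4 and 5.54 CPM, each below the lowest APP/PS1 library. The log2 fold change of APP/PS1 over WT was 0.72 ± 0.24 (SE), with an unadjusted p = 0.0121 and an edgeR adjusted p = 0.147. Without WT library 3 alone it was 0.84, with an edgeR adjusted p = 0.112. With N-AS library 3 left out as well, a setting added after the values were seen, it was 0.85 (adjusted p = 0.0454). N-AS library 3 is not in this comparison and enters it only through the fit that all groups share. N-AS over APP/PS1 gave -0.51 ± 0.24 (adjusted p = 0.573), and -0.27 without N-AS library 3. The APP/PS1 libraries also held more microglial marker RNA than the other groups, and its part in the Egr2 values was not tested.

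Arc, which encodes a cytoskeletal protein of active synapses, was at 65.3, 66.6 and 89.7 CPM in WT and at 72.5, 63.0, 56.5 and 51.9 CPM in APP/PS1. After N-AS it was at 120, 105 and 53.3 CPM. The first 2 N-AS libraries lay above all others, while the third lay among the lowest. The log2 fold change of N-AS over APP/PS1 was 0.61 ± 0.25 (SE), with an unadjusted p = 0.0326 and an edgeR adjusted p = 0.531. Without N-AS library 3, which left libraries on the same side of the Xist split, it was 0.90 ± 0.19, with an unadjusted p = 0.000707 and an adjusted p = 0.639. Without N-AS library 1 it was 0.38.

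Npas4, a transcription factor induced by calcium in neurons, was at 12.5, 12.9 and 11.8 CPM in WT and at 10.2, 9.01, 9.29 and 8.71 CPM in APP/PS1. The WT and APP/PS1 libraries did not overlap, with a narrow spread in both. After N-AS it was at 20.8, 15.2 and 9.31 CPM, again with library 3 apart from the others. The log2 fold change was -0.42 ± 0.22 for APP/PS1 over WT (SE, unadjusted p = 0.0894, edgeR adjusted p = 0.383). For N-AS over APP/PS1 it was 0.70 ± 0.22 (unadjusted p = 0.00922, adjusted p = 0.497), and 0.96 ± 0.17 without N-AS library 3 (unadjusted p = 0.000177, adjusted p = 0.639). Without N-AS library 1 it was 0.40. Between N-AS library 3 and APP/PS1 libraries 3 and 4 the difference was 0.049, against 0.88 between N-AS and APP/PS1 within libraries 1 to 6, both in log2 CPM.

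**Figure D2:**
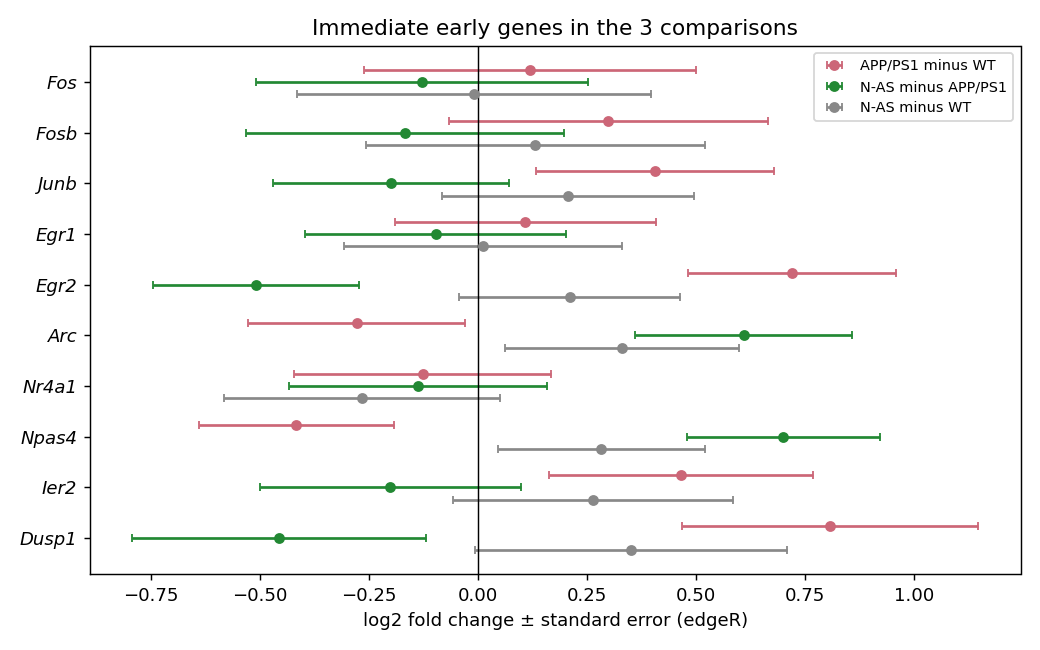
The horizontal axis is the log2 fold change with its standard error from edgeR, for each of the 10 genes and each of the 3 comparisons. In APP/PS1 minus WT, Dusp1 at 0.81 and Egr2 at 0.72 lie furthest right and Npas4 at -0.42 furthest left, while in N-AS minus APP/PS1 Npas4 at 0.70 and Arc at 0.61 lie furthest right.

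The members' counts were read against those of all genes tested. In APP/PS1 against WT, 0 of 10 passed the adjusted threshold where 3.47% of all genes did, 2 of 10 had an unadjusted p under 0.05 (Egr2 and Dusp1) where 17.2% did, and 2 of 10 (Egr2 and Npas4) did not overlap where 14.9% did. In N-AS against APP/PS1, 0 of 10 passed, as did 0% of all genes with edgeR. There 2 of 10 (Arc and Npas4) had an unadjusted p under 0.05 where 8.83% of genes did, and 1 of 10 (Egr2) did not overlap where 12.7% did. DESeq2 called 79 genes in that comparison, and no member. In N-AS against WT, 0 of 10 passed where 0.187% did, 0 of 10 had an unadjusted p under 0.05 where 6.73% did, and 0 of 10 did not overlap where 8.81% did. The median log2 fold change of the members was 0.21, -0.15 and 0.21 in the 3 comparisons, against -0.074, -0.0089 and -0.038 over all genes, and each pair of comparisons shares a group of libraries.

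Per length of transcript, Fos was the highest member in each group, at 140.6 CPM per kb in WT, 153 in APP/PS1 and 140 after N-AS (means). Egr2 and Npas4 were the lowest, at 2.18 and 3.00 CPM per kb in WT, 3.60 and 2.25 in APP/PS1 and 2.51 and 3.64 after N-AS. The order of the pair was not the same in each group, and their libraries overlapped after N-AS. Dusp1 was the fourth gene in WT, at 34.7 ± 17.4 CPM per kb (SD), and the second in APP/PS1, at 60.7 ± 8.09. In WT, Fos, Junb, Egr1, Dusp1, Arc, Nr4a1, Fosb and Ier2 formed a chain in which each gene's libraries overlapped the next.

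The libraries of a group differed from each other in a shared way. After the group means had been removed from log2 CPM, all 45 pairs of members were positively correlated over the 10 libraries, with a median Pearson r of 0.759. Among Fos, Fosb, Junb, Ier2, Nr4a1 and Dusp1, a group chosen after the values were seen, the 15 pairs had r from 0.906 to 0.994. These 6 genes were linked more loosely to Arc and Npas4, with r from 0.0926 for Fos and Arc to 0.669. Arc and Npas4 were correlated with each other at 0.844, and Arc with Egr2 at 0.815. Without N-AS library 3 these values were 0.332 and 0.457, and without WT library 3 alone 0.946 and 0.798. Without both libraries they were 0.692 and 0.244, so Arc and Npas4 were linked more closely again, while Arc and Egr2 were not. Both values therefore depended on which libraries were used. The libraries share a depth and a makeup of cell types, so these values describe the libraries and are not independent of either. The same correlations were not taken for pairs of genes over all genes tested, so no background stands beside them.

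**Figure D3:**
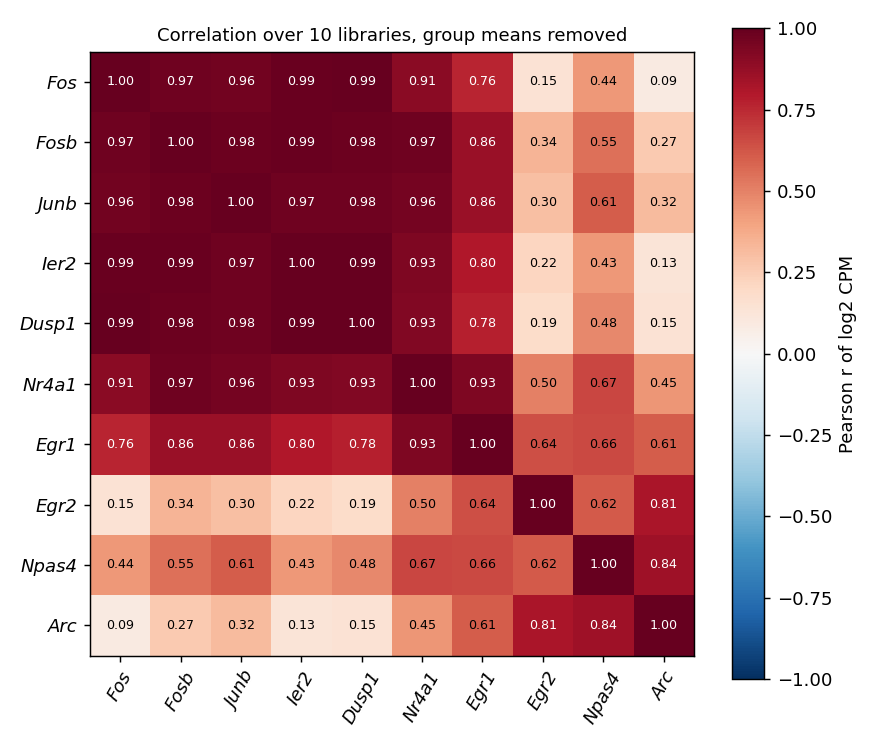
The colour and the number in each square give Pearson r of log2 CPM between a pair of members over 10 libraries after the group means were removed. The block from Fos to Nr4a1 holds r of 0.906 or more, whereas Arc is at 0.0926 with Fos and 0.844 with Npas4.

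WT library 3 and N-AS library 3 carried much of this movement. Of the 10 members, 5 were lowest of all libraries in WT library 3 and 3 in N-AS library 3, and in N-AS library 3 all 10 were lowest of their group. These ranks were not counted over all genes. Fos was 1.76 log2 CPM lower in WT library 3 than in WT libraries 1 and 2 on average, 0.81 lower in N-AS library 3 than in N-AS libraries 1 and 2, and 0.36 lower in APP/PS1 libraries 3 and 4 than in libraries 1 and 2. These are the libraries numbered 7 to 10 in the sample titles, and no source says what that numbering marks. With both libraries left out, the 15 pairs of the 6 genes kept r from 0.831 to 0.975 over 8 libraries. The median r of these genes with Arc or Npas4 was then 0.289, and it was -0.0492 with N-AS library 3 alone left out, when 33 of the 45 pairs were positive. With WT library 3 alone left out it was 0.776, and all 45 pairs were positive.

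**Figure D4:**
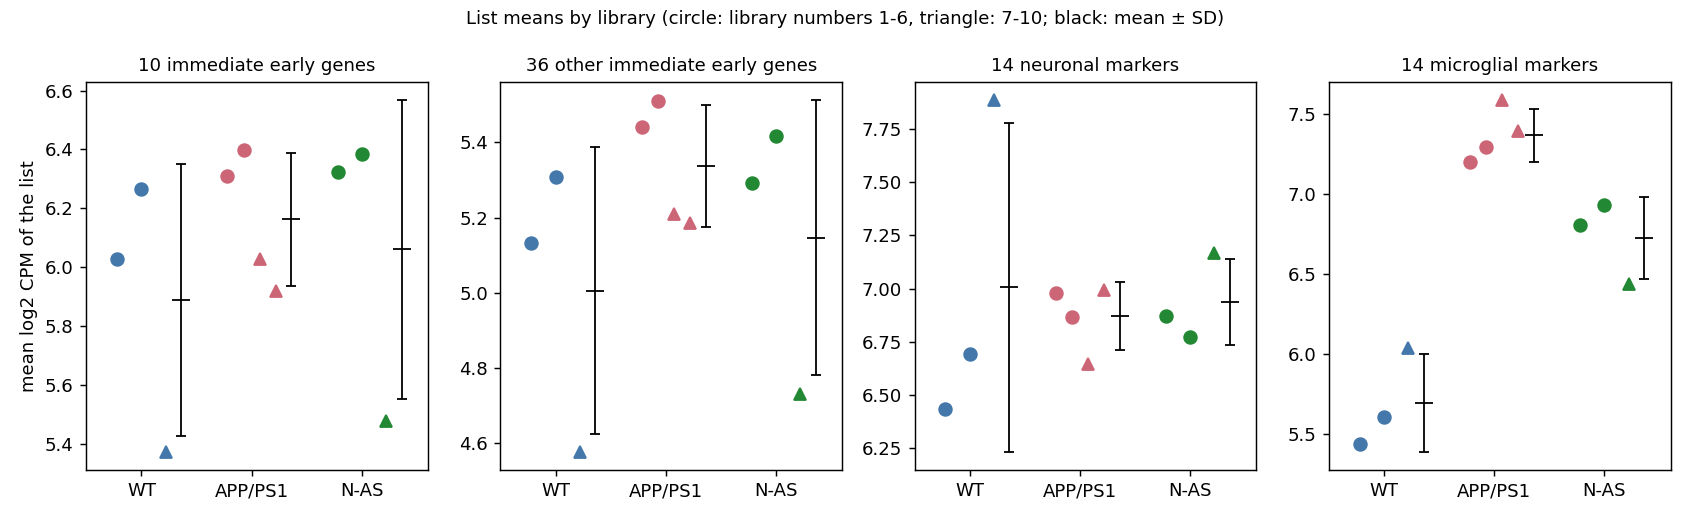
Each panel plots the mean log2 CPM of a list of genes in each library, with the group mean and SD in black and the libraries numbered 7 to 10 as triangles. The 10 genes and the 36 other immediate early genes are lowest in WT library 3 and N-AS library 3, the neuronal markers are highest in WT library 3, and the microglial markers separate WT from APP/PS1.

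Other immediate early genes moved with the members from library to library. The mean of 36 such genes had r = 0.993 with the mean of the 10 members after group means were removed, and a list of 22 genes known to be induced by dissociation had r = 0.994 over the same 10 libraries. The neuronal markers had r = -0.688, the oligodendrocyte markers 0.874, the microglial markers -0.101 and 26 upstream kinases and factors 0.0731. The astrocyte markers had r = -0.612, the endothelial markers 0.626 and the late response genes, described below, -0.696. With WT library 3 and N-AS library 3 left out, r was 0.975 for the other immediate early genes, 0.987 for the dissociation genes, 0.911 for the oligodendrocyte markers and 0.297 for the neuronal markers, whose sign turned. For the astrocyte markers it was then -0.722, for the endothelial markers 0.421 and for the late response genes -0.364. For the upstream genes it was then 0.781, and 0.644 without WT library 3 alone. For the microglial markers it was -0.38 without both libraries, -0.785 without N-AS library 3 alone and 0.496 without WT library 3 alone. The neuronal, upstream and microglial links therefore depended on which libraries were used. The dissociation list shares 7 of its 22 genes with the other immediate early genes. The part of dissociation or of cell makeup in the members' values was not tested. Of the most abundant of the 36 genes, Jun ranged from 180 CPM in WT library 3 to 467 CPM in APP/PS1 library 2. Klf6, Btg2 and Atf3 had their lowest and highest values in the same libraries as Jun, and Homer1, a scaffold protein of synapses, was highest in WT library 3 at 245 CPM.

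Of the 36 other immediate early genes, 1 was higher and none lower in APP/PS1 against WT (edgeR, adjusted p under 0.05), and 9 had an unadjusted p under 0.05, against 3.47% and 17.2% of all genes. Their median log2 fold change was 0.35, against -0.074 over all genes. The gene that passed was Rgs2, an inhibitor of G protein signals, at 21.0, 19.6 and 34.8 CPM in WT and 57.7 to 70.4 CPM in APP/PS1. It rose by 1.33 ± 0.21 on the log2 scale (SE, edgeR adjusted p = 0.00685). After N-AS it was at 36.2 to 50.1 CPM, and its log2 difference from APP/PS1 of -0.48 ± 0.20 did not pass (adjusted p = 0.540).

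The late response genes are switched on in neurons after the early factors. Of 14 tested, 1 fell and none rose in APP/PS1 against WT, and 13 of 14 had a negative log2 fold change, with a median of -0.35. Over all genes 3.47% passed in either direction, 11006 of 18727 had a negative log2 fold change, and the median was -0.074. Of the 14 neuronal markers, 13 had a negative log2 fold change too, with a median of -0.34. The shift was therefore not particular to the late response genes. The gene that fell was Inhba, a subunit of activin, at 6.46 to 8.80 CPM in WT and 4.03 to 5.01 CPM in APP/PS1, by 0.79 on the log2 scale (SE 0.19, edgeR adjusted p = 0.0448). Rasgrp1, Scg2, Sorcs3 and Nrn1, among the 5 most abundant of them, were highest in WT library 3, where the neuronal markers were highest too. Vgf, the other of the 5, was highest in APP/PS1 library 1 at 60.2 CPM. Of the 26 kinases and factors upstream, which include Creb1 and Srf, none passed in any comparison. With edgeR, 3 of the 26 had an unadjusted p under 0.05 for APP/PS1 against WT, where 17.2% of all genes did.

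Of the 22 dissociation genes, 5 rose and none fell in APP/PS1 against WT, with a median log2 fold change of 0.59, where 3.47% of all genes passed in either direction and the median was -0.074. The 3 with the lowest adjusted p were Ccl4, Ccl3 and Rgs1, at log2 fold changes of 2.69, 2.65 and 2.75 (edgeR adjusted p = 0.000545, 0.00188 and 0.00252). Ccl3 and Ccl4 are chemokines of microglia and other myeloid cells, and 11 of 14 microglial markers rose in the same comparison, with a median of 1.67 and Trem2 at 3.36. P2ry12 at 0.36, Sall1 at 0.43 and Tmem119 at 0.50 did not pass. Set against the mean of the microglial markers, each of the 10 members was lower in APP/PS1 than in WT, as a description with no test. The values ran from -2.08 log2 units for Npas4 to -0.72 for Dusp1. The marker mean itself rose from 5.694 log2 CPM in WT to 7.365 in APP/PS1, while the largest rise of a member was 0.95 for Dusp1. That rise of the markers fixed the sign for all 10, so the sign is no trait of the members. Set against the neuronal markers, 8 of the 10 were higher, with Dusp1 at 1.08 and Egr2 at 0.84, and Arc and Npas4 were lower at -0.14 and -0.28. WT library 3 set that tally: without it only Egr2 at 0.50 and Dusp1 at 0.16 were higher, and the other 8 were lower, down to -0.75 for Npas4. Against the microglial markers all 10 were lower without it too. No neuronal or endothelial marker passed the test in APP/PS1 against WT, while 4 of 10 oligodendrocyte markers fell, led by Opalin at -2.27. Of 10 astrocyte markers only Gfap passed, and it rose by 5.65, while 6 of the 10 had a negative log2 fold change and the median was -0.15. In N-AS against APP/PS1 no gene of these lists passed with edgeR.

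The genes outside the set whose libraries moved most like the mean of the members were Ccnk at r = 0.983, Epb4.1 at 0.982, Col6a2 at 0.978, Nfkbiz at 0.976 and Zfpm1 at 0.973. They were the first 5 of 13202 genes with a mean of at least 5 CPM, with r taken over the 10 libraries after group means were removed. The gene at rank 25 still had r = 0.955, so the first 5 did not stand apart. Without WT library 3 and N-AS library 3 their r lay between 0.824 for Zfpm1 and 0.996 for Col6a2. The libraries left were among those by which the genes had been picked, so this is no separate check.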

How the data were processed

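The authors depleted ribosomal RNA, prepared strand-specific libraries and deposited raw read counts per gene symbol for each library; the paper's methods name TopHat for alignment and bedtools with Bioconductor for counting, and the submitters' processing notes also name edgeR and the build mm10. Versions, the annotation and the strand setting of the counting are not given in the sources used here. Counts are whole numbers; 103 lines that share 43 symbols were summed per symbol. Groups and replicate numbers come from the sample labels, and age, dose and pooling from the labels' protocols and the paper's methods. The total count per library was 8805804 to 19432075, and counting alone understates the error of reads amplified without molecular identifiers.

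Genes were filtered with filterByExpr, scaled by TMM and tested with edgeR 4.0.16 in R 4.3.3 (glmQLFit and glmQLFTest, 1 model of 3 groups, no covariates), with Benjamini-Hochberg adjustment over 18727 genes and a threshold of 0.05. SE is the fold change divided by the root of the test statistic. Log2 CPM used a prior count of 2. Gene lengths were the merged exons of GENCODE M21 on GRCm38. On simulated counts for APP/PS1 against WT, 34% of 100 genes changed by 1 log2 unit and 78% of 100 changed by 2 were called. The 12 pairs of libraries within groups had a chi-square per degree of freedom of 14.1 to 142, so each library was counted as its own sample.

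The members and lists were chosen with earlier results of these data known. Named are all 10 members and the 5 genes most like them. Also named are the 5 most abundant other immediate early and late response genes. From each list, genes were drawn from up to 3 per direction and comparison with the lowest adjusted p among those called, and not all of these are named. P2ry12, Sall1, Tmem119, Creb1 and Srf were named outside this rule. Numbers of N-AS and APP/PS1 libraries matched in the labels, and same-numbered libraries were correlated after group means were removed (r = 0.278, 0.142 and 0.309), which is over 0.1 for each pair; for APP/PS1 and WT it was -0.485, 0.441 and -0.0096. The alternatives tried were total counts in place of TMM, no filter, quantile-normalized voom in limma 3.58.1, DESeq2 1.42.0, a replicate block, a covariate for the library set, and each library left out. Leaving out WT library 3 with N-AS library 3 was added after the values were seen. The libraries' separate cultures or animals beyond the pools are not labelled, so p-values measure the spread between libraries.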

Additional observations from a re-analysis of the deposited data

How the results depend on the processing

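The call of no member held under DESeq2, limma, total counts, no filter and the replicate block, and with each library left out in turn, in all 3 comparisons. It did not hold in APP/PS1 against WT with the library set as a covariate, where 1 member passed (Dusp1), and with WT library 3 and N-AS library 3 both left out, where 1 passed (Egr2). The number of genes called in APP/PS1 against WT was 649, and it was 1362 with DESeq2, 326 with the replicate block, 1055 with the library set, 1058 without both libraries and 299 to 923 with 1 library left out (923 without WT library 3, 299 without APP/PS1 library 3 or 4). In N-AS against APP/PS1 it was 0, and 79 with DESeq2, 1 without both libraries and 0 to 1 with 1 library left out (1 without N-AS library 1). The replicate block changed no call there and gave 0 genes. In N-AS against WT it was 35, and 187 with DESeq2, 20 with limma, 5 with the replicate block, 64 with the library set, 163 without both libraries and 1 to 116 with 1 library left out (1 without WT library 2, 116 without N-AS library 3). The causes were not tested.

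Of 410 alternative values of the members' fold changes, 365 kept direction and side of the threshold, 43 changed sign and 2 newly passed. The changes of sign were of genes far from the threshold. In APP/PS1 against WT, Nr4a1 was 0.039 with the replicate block and 0.040 with the library set, and without both libraries Fos was -0.26, Fosb -0.042 and Egr1 -0.051. With 1 library left out, Fos ranged from -0.26 to 0.50, Fosb from -0.042 to 0.65, Egr1 from -0.052 to 0.30 and Nr4a1 from -0.37 to 0.12. In N-AS against APP/PS1 without both libraries, Fos was 0.10, Fosb 0.11, Junb 0.021, Egr1 0.17 and Nr4a1 0.12. With 1 library left out, Fos ranged from -0.34 to 0.10, Fosb from -0.39 to 0.11, Junb from -0.35 to 0.022, Egr1 from -0.30 to 0.17 and Nr4a1 from -0.28 to 0.12. In N-AS against WT, Fos was 0.13 with limma, 0.011 with total counts, 0.020 with no filter, 0.095 with the block and 0.087 with the library set, and Egr1 was -0.043, -0.031 and -0.033 with limma, the block and the library set. With 1 library left out, Fos ranged from -0.39 to 0.37, Fosb from -0.21 to 0.49, Junb from -0.052 to 0.52, Egr1 from -0.18 to 0.30, Nr4a1 from -0.51 to 0.011, Npas4 from -0.011 to 0.56 and Ier2 from -0.055 to 0.63.

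With 3 or 4 libraries a group, fold changes of the members had standard errors of 0.22 to 0.41 on the log2 scale. Differences of that size were not detectable with this number of libraries, and larger ones could be missed too. In APP/PS1 against WT, Egr2 at 0.72 and Dusp1 at 0.81 did not pass. On simulated counts for that comparison, 34% of genes changed by 1 log2 unit were called. Egr2 and Npas4 had the fewest reads.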
